A study of Rattus norvegicus with 9 samples.

Results

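The 3 Sham libraries describe the bone transcriptome of female Sprague–Dawley rats that kept their ovaries, and they are all 3 Sham libraries of a series of 9. Sham rats, 8-week-old at purchase, had the ovaries exposed and fat beside them taken out, and were gavaged for 8 weeks, from 6 weeks after surgery, with the vehicle sodium carboxymethyl cellulose (CMC-Na) and no drug. The labels give 1%, 2% and 3% CMC-Na for Sham-1, Sham-2 and Sham-3, where the methods of the study give 1%, and here they count as 3 replicates of a single group. The series also holds 3 libraries each from ovariectomized (OVX) rats and from OVX rats given astragaloside IV, which are not compared here. The tissue is labelled bone, with no cell sorting, so the RNA came from mineralized tissue, marrow and whatever adhered to the bone, and in such bulk samples fewer cells of a type and less RNA per cell cannot be told apart.

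Bone is a composite organ. Osteoblasts lay down a matrix of type I collagen and mineral-binding proteins, osteocytes live inside it, osteoclasts resorb it, and cartilage covers the joint surface and forms the growth plate. The marrow makes red cells, whose RNA is dominated by globin, and neutrophils, which carry their antimicrobial proteins in granules that are filled at successive stages of maturation. Skeletal muscle attaches to bone through tendon and has slow and fast fibres, each with its own forms of the contractile proteins.

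Sham-1 held 35813432 gene counts, Sham-2 held 34874880 and Sham-3 held 35725783. Protein-coding genes took 99.2% to 99.4% of them, and of 18206 protein-coding genes listed, 11740 (64.5%) reached an FPKM of 1 in all 3 libraries and 1934 stayed at 3 counts or fewer in all 3. FPKM divides a count by gene length and library size and is the scale used here to compare genes. Levels covered a wide range: 5532 protein-coding genes had an FPKM of at least 10 in all 3 libraries, 547 of at least 100 and 57 of at least 1000. The 103 genes with the highest mean share held 25% of counts and 885 genes held 50%, whereas 113 genes held 50% of the summed FPKM.

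Genes were grouped into 5 lists (red cell, neutrophil, bone matrix, cartilage and skeletal muscle), and the share of a library's counts was summed over each. Differences between libraries in single genes are given as log2 CPM, counts relative to library size, scaled by TMM, an edgeR normalization for library composition, and the background is the share of all 16477 genes with a mean of at least 10 counts that passed the same limit. Of these genes, 5921 were highest in Sham-1, 4038 in Sham-2 and 6518 in Sham-3. The lowest value fell in Sham-1 for 6261, in Sham-2 for 3761 and in Sham-3 for 6455. These are the background for counts of members at an extreme. The lists and members were chosen with earlier results of these data known, so counts of members beside either background are a description. Sham-3 stood apart from the other libraries, more than 2-fold away from both in 6.54% of the 16477 genes. Without it the mean share was 7.05% for red-cell genes, 2.79% for neutrophil genes, 1.34% for bone matrix, 0.539% for cartilage and 1.97% for skeletal muscle, beside the means over 3 libraries given with each list.

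Globins, mitochondrially encoded subunits and neutrophil proteins led the ranking of protein-coding genes by mean FPKM. Hba-a1, an adult alpha globin chain, ranked first with 62392 FPKM in Sham-1, 61547 in Sham-2 and 79728 in Sham-3, which was 10.3%, 9.99% and 13.1% of all FPKM. Hba-a2 followed with 18809, 23153 and 21749 FPKM, and the beta chain Hbb had 7480, 9189 and 16618. Hba-a1 and Hbb were highest in Sham-3 and Hba-a2 in Sham-2. COX1, a catalytic subunit of cytochrome c oxidase encoded in the mitochondrial genome, had 12559, 17035 and 7465 FPKM. Of the 25 highest genes, 9 were encoded in that genome (COX1, COX3, ATP6, COX2, CYTB, ND1, ND2, ND4 and ND3), and in each of these 9 Sham-3 had the lowest value. S100a8, a calcium-binding alarmin of neutrophils, had 9253, 7722 and 6256 FPKM. The defensins RatNP-3b, Np4 and Defa5, peptides of the primary granules, had means of 3889.7, 3773 and 3726 FPKM. Of general genes among the 25, Actb (beta actin) had 2579, 2390 and 2350 FPKM and the ribosomal stalk gene Rplp1 2071, 2031 and 2143. Tmsb4x, which encodes an actin-sequestering peptide, spanned more with 9109, 7295 and 5878. The lysozyme gene Lyz2 of phagocytes ranked 10 at 4407 ± 177 FPKM (SD, n = 3). No gene of bone matrix, cartilage or muscle was among the 25, and the highest of these lists were Acta1 at rank 56 and Sparc at rank 58. Counts of near-identical globin and defensin copies may be split between the copies by the quantification, so their sums are firmer than the single values.

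**Figure D1:**
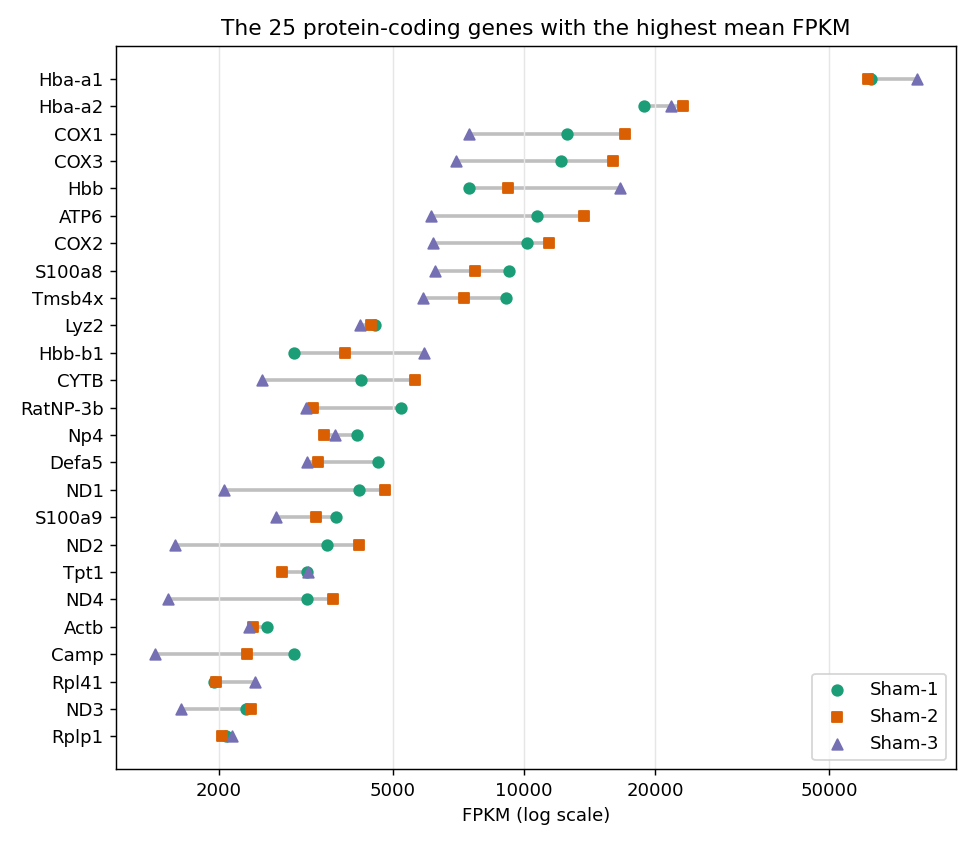
FPKM on a log axis for the 25 protein-coding genes with the highest mean FPKM, with 1 marker for each library and a grey bar from the lowest to the highest. Hba-a1 lies at 61547 FPKM or more in all 3 libraries, and the 9 mitochondrially encoded genes have their lowest marker in Sham-3.

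Red-cell genes held more counts than any other of the 5 lists, 6.60% of Sham-1, 7.51% of Sham-2 and 9.41% of Sham-3 (7.84% ± 1.44, SD, n = 3), and 18.7% ± 3.21 of summed FPKM. Of 70 genes listed, 63 were in the table and 59 had an FPKM of at least 1 in all 3 libraries. Alpha chains held 4.57%, 4.77% and 5.72% of counts and beta chains 0.767%, 0.962% and 1.63%. Summed alpha FPKM was 6.95 times the beta sum in Sham-1, 5.80 times in Sham-2 and 4.07 times in Sham-3. The beta sums leave out Hbb-b2, which was not in the list and had 196, 205 and 252 FPKM. The embryonic chains Hbz and Hbe2 were at 3 counts or fewer in all libraries, and Hbe1 had 1.02 ± 0.493 FPKM. Beta chain copies Hbb-b1 and Hbb-bs had means of 4246 and 1669.6 FPKM, and the third alpha copy, Hba-a3, 1219.9.

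The rest of the red-cell program was also abundant. Ahsp, the chaperone of free alpha globin, had 557, 811 and 1019.9 FPKM. Alas2, the erythroid enzyme that starts heme synthesis, had 546, 583 and 748, and the peroxidase Prdx2 633, 693 and 909.6. The anion exchanger Slc4a1 had 314, 475 and 545. In each of these genes Sham-1 was lowest and Sham-3 highest. The same order of extremes held across the list: of 60 members with a mean of at least 10 counts, 55 were lowest in Sham-1 and 50 highest in Sham-3, with a median log2 difference of -0.79 between Sham-1 and Sham-3 and of -0.18 between Sham-2 and Sham-3, where the median over all 16477 such genes was -0.0013 and -0.0018. Among those 16477 genes, 6261 were lowest in Sham-1 and 6518 highest in Sham-3. Most of the shifts in list members were under 2-fold. Members that were more than 2-fold lower in Sham-1 than in both other libraries included the spectrin Sptb, the membrane protein Epb42 and the tetraspanin Tspan33, beside a background of 1.5% of all genes tested. Among the exceptions, 9 members were highest in Sham-2 and 1 in Sham-1. The 4 members that were lowest in Sham-3 were the heme and iron genes Slc25a38, Ppox and Tfr2 and the membrane skeleton gene Tmod1. Each of these 4 was within 2-fold of the other libraries. The beta globin minor gene LOC100134871 had 318, 136 and 501 FPKM and was more than 2-fold lower in Sham-2 than in both others, as were 0.983% of all genes. The transcription factor Klf1, which activates beta globin, had 90.3, 150.2 and 188 FPKM, and Gata1 51.6, 67.6 and 69.9.

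The 250 bases upstream of the start of 4 genes of this program are shown because the globins led the ranking and because their members shared extremes across libraries. They come from RefSeq on assembly GRCr8, whereas the submitters name mRatBN7.2 for the files. Capitals mark the TATA box letters TATAAA, the CCAAT box, the CACCC box letters CACACCC and the GATA letters AGATAA. Each was searched on both strands, so that a capital run may be the reverse complement, and no marked matches overlap. Hba-a1 is the minus strand of chr10:15842581-15842830, Hbb-b1 of chr1:167643521-167643770 and Hbb-bs of chr1:167631631-167631880, and Alas2 is the plus strand of chrX:22895200-22895449.
Hba-a1: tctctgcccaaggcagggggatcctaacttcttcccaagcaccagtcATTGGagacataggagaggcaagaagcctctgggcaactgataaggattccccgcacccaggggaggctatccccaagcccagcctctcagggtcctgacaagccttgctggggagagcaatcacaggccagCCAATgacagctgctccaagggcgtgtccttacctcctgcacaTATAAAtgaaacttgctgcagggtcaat
Hbb-b1: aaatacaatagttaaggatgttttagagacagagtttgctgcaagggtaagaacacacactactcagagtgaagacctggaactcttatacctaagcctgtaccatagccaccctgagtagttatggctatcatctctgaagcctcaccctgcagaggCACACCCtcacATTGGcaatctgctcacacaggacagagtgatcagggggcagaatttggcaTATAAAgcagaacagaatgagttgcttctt
Hbb-bs: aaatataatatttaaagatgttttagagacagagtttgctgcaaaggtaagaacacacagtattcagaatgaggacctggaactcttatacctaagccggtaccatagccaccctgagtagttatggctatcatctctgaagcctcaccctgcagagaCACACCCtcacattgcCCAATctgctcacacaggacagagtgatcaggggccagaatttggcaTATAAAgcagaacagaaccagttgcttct
Alas2: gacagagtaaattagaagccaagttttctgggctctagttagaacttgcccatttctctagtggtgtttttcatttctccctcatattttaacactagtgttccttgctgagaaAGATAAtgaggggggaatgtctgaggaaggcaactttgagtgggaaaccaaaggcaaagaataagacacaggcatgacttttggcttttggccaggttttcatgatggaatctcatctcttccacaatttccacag
Hba-a1 and Hba-a2 had the same base at 241 of these 250 positions, and Hbb-b1 and Hbb-bs, aligned without gaps, at 182. TATAAA lay 28 bases before the start in Hba-a1, 30 in Hbb-b1 and 29 in Hbb-bs. CACACCC lay 92 bases before the start in both beta genes. It was present in 12 of 48 red-cell promoters (25%) and in 6.05% of all 27457 promoters, and AGATAA in 10 of 48 (20.8%) and 10.0%, but AGATAA was as frequent in neutrophil promoters, at 8 of 39 (20.5%). TATAAA was present in 9 of 48 (18.8%) and 13.1% of all, and the CCAAT box in 24 of 48 (50%) and 34.3% of all, beside 43.6% of neutrophil and 45.5% of muscle promoters. The GC box letters GGGCGG, searched as well but not marked, were in 23 of 48 (47.9%) and 32.4% of all. They were in 48.0% of cartilage, 37.5% of bone matrix, 29.1% of muscle and 7.69% of neutrophil promoters. These matches describe letters in the window and not sites of binding.

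Neutrophil genes held 3.05% of counts in Sham-1, 2.54% in Sham-2 and 2.16% in Sham-3 (2.58% ± 0.447, SD, n = 3). The order of the libraries was the reverse of that of the red-cell share. Of 60 genes listed, 53 were in the table, 44 had an FPKM of at least 1 in all 3 libraries, and Defa6, Defa9, Defa24, Cxcr1 and Wfdc21 were at 3 counts or fewer in all 3. The cytosolic pair S100a8 and S100a9 held 1.06%, 0.929% and 0.753% of counts, and S100a9 had 3701, 3337 and 2702 FPKM. Primary granule genes, which mark promyelocytes, held 0.246%, 0.225% and 0.196%, led by the myeloperoxidase gene Mpo with 435, 403 and 333 FPKM, and the defensins held 0.778%, 0.569% and 0.565%. Secondary granule genes, of later stages, held 0.549%, 0.467% and 0.376%. Camp, the cathelicidin precursor, led them with 2971, 2318 and 1425 FPKM. Genes of tertiary granules and mature cells held 0.382%, 0.323% and 0.245%, led by Retnlg with 560.1, 472 and 283 FPKM. All of these sets were lowest in Sham-3. The regulator Cebpe, needed for secondary granules, had 49.0 ± 9.61 FPKM and Gfi1 10.7 ± 2.51.

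Single neutrophil genes mostly kept within 2-fold. Of 46 members with a mean of at least 10 counts, 33 were lowest in Sham-3 and 27 highest in Sham-1. Among all 16477 genes, 6455 were lowest in Sham-3 and 5921 highest in Sham-1. Olfm4, a marker of a neutrophil subset, and the stefin Stfa2l1 were more than 2-fold higher in Sham-1 than in both others (background 1.71%), with 82.4, 38.6 and 40.1 FPKM for Olfm4. The Fc receptor Fcgr3a went the other way, at 8.37, 7.74 and 32.7 FPKM, more than 2-fold higher in Sham-3 (background 1.27%). Fpr2, a formyl peptide receptor, had 5.77, 4.62 and 1.74 FPKM.

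Bone matrix genes held 1.30% of counts in Sham-1, 1.38% in Sham-2 and 2.54% in Sham-3 (1.74% ± 0.694, SD, n = 3). All 57 genes listed were in the table and 54 had an FPKM of at least 1 in all 3 libraries, and Dspp, which encodes the dentin sialoprotein precursor, was at 3 counts or fewer in all 3. Sparc (osteonectin) was the highest with 984, 810.4 and 1727 FPKM. Among mineral-binding proteins, Spp1 (osteopontin) had 749.7, 838 and 1051 FPKM, Bglap (osteocalcin) 441, 670 and 1045, and Ibsp 262, 392 and 359. Sham-3 was highest for Spp1 and Bglap but not for Ibsp. Mgp, which inhibits mineralization in cartilage and vessels, had 795, 446 and 667 FPKM and was lowest in Sham-2.

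The excess in Sham-3 lay mainly in fibrillar collagens. Col1a1 had 368, 478 and 1225 FPKM and Col1a2 288, 371 and 1029.9, and both were more than 2-fold higher in Sham-3 than in both others (background 1.27%), as was Serpinh1, the collagen chaperone of the endoplasmic reticulum, with 76.1, 73.0 and 159 FPKM. The 6 fibrillar collagen genes together held 0.426%, 0.530% and 1.30% of counts. Without the fibrillar collagens the difference between libraries was smaller: mineral-binding proteins held 0.268%, 0.301% and 0.351%, and proteoglycans and glycoproteins 0.444%, 0.402% and 0.665%. In 37 of 56 members Sham-3 had the highest value, beside 6518 of all 16477 genes. The median log2 difference over members was -0.30 between Sham-1 and Sham-3 and -0.35 between Sham-2 and Sham-3. Kera, a corneal and connective tissue proteoglycan, was the reverse at 10.6, 7.60 and 2.81 FPKM, and Smoc2 was highest in Sham-1 at 19.8, 8.67 and 6.41. The osteoblast and osteocyte list held 0.0963%, 0.0821% and 0.0996% of counts, led by Alpl (alkaline phosphatase) at 43.3, 40.3 and 56.3 FPKM, Phospho1 at 46.1, 38.3 and 50.3, and the Wnt inhibitor Wif1 at 63.9, 33.8 and 31.0. Its summed share differed less than that of collagen. In this list 12 of 22 members were highest in Sham-3, beside 6518 of all 16477 genes. Median log2 differences were -0.31 between Sham-1 and Sham-3 and -0.40 between Sham-2 and Sham-3. Smpd3 and Cpz were more than 2-fold higher in Sham-3 than in both others (background 1.27%). Osteoclast genes had the order of bone matrix, with 0.289%, 0.394% and 0.510% of counts. Car2, the carbonic anhydrase that supplies acid, had 763, 1133 and 1303 FPKM of a list sum of 1479, 2138 and 2810. The summed FPKM thus leans on Car2, whose order was also that of the red-cell share. Of 20 members, 17 were lowest in Sham-1 and 16 highest in Sham-3, beside 6261 and 6518 of all 16477 genes. The collagenase cathepsin K (Ctsk) had 195, 408 and 703 FPKM and tartrate-resistant phosphatase Acp5 133, 174 and 321. Ctsk, Atp6v0d2 and Itgb3 were more than 2-fold lower in Sham-1 than in both others (background 1.5%), and the receptor Oscar was more than 2-fold lower in Sham-3 (background 5.26%), with 3.88, 3.20 and 1.24 FPKM.

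Cartilage genes held 0.712%, 0.365% and 0.631% of counts (0.570% ± 0.182, SD, n = 3), and the members did not share an order. All 36 genes listed were in the table and 31 had an FPKM of at least 1 in all 3 libraries. Col2a1, the collagen of hyaline cartilage, had 282, 127 and 453 FPKM. Sham-2 was more than 2-fold lower than both others for 7 of 36 members (background 0.983%): Col2a1, Col9a2, Col10a1, Acan, Hapln1, Cnmd and Ucma. Col10a1, the collagen of hypertrophic chondrocytes in the growth plate, had 36.7, 13.4 and 53.9 FPKM, and the proteoglycan Acan 34.7, 14.7 and 36.6. A further 6 members, Col9a1, Col9a3, Col11a1, Epyc, Matn3 and Matn4, were more than 2-fold higher in Sham-3 than in both others (background 1.27%), with 5.53, 2.68 and 32.0 FPKM for Col9a1.

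A different set was highest in Sham-1. Prg4, the lubricin of joint surfaces and synovium, had 372, 129 and 50.1 FPKM. Chad had 380.0, 190.3 and 186 FPKM, Cytl1 267, 104 and 103 and Clec3a 263, 100.8 and 84.2. Prg4, Cytl1, Clec3a, Matn1 and the growth plate signal Ihh were more than 2-fold higher in Sham-1 than in both others (background 1.71%), and Prg4 was also more than 2-fold lower in Sham-3 (background 5.26%). Comp, shared by cartilage and tendon, differed little at 171, 145 and 131 FPKM, and so did Fmod at 103, 86.7 and 96.3. Of the regulators, Pth1r led with 17.7 ± 3.74 FPKM, and Sox9, which drives chondrocyte identity, had 2.20 ± 0.809. No member was highest in Sham-2.

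Skeletal muscle genes held 2.21% of counts in Sham-1, 1.73% in Sham-2 and 0.395% in Sham-3 (1.44% ± 0.939, SD, n = 3), a 5.59-fold span that was the widest of the 5 lists. Of 69 genes listed, 68 were in the table and 55 had an FPKM of at least 1 in all 3 libraries. The muscle sums and the fast-fibre sums below leave out Myl11, myosin light chain 11. It was not in the lists under that symbol and had 769, 453 and 210 FPKM. Acta1, the skeletal alpha actin, had 1825, 1519 and 252 FPKM. Myoglobin (Mb) had 703, 878 and 76.3, the muscle creatine kinase Ckm 891, 521 and 169.7, and the titin cap Tcap 556, 515 and 52.3. Sham-3 was low for nearly all members: of 67 members with a mean of at least 10 counts, 66 were lowest in Sham-3 and 61 were more than 2-fold lower there than in both others, beside a background of 5.26% of all genes tested. The median log2 difference was 2.69 between Sham-1 and Sham-3 and 2.43 between Sham-2 and Sham-3. Muscle list members made up 7.04% of the 867 genes that were lower in Sham-3 in this way. The kinase gene Mylk2 was among the exceptions in size, with 69.9, 50.3 and 40.7 FPKM, and Cox7a1 was under 0.5 FPKM in all 3 libraries. Mitochondrially encoded genes were lowest in the same library, with 6.37% of counts in Sham-1, 8.00% in Sham-2 and 3.56% in Sham-3, all 13 lowest in Sham-3 and 5 of 13 (ND2, ND4, ND4L, ND5 and ATP8) more than 2-fold lower than in both others. The part of mitochondrial RNA in the muscle difference, or of muscle in the mitochondrial one, was not tested.

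Sham-1 and Sham-2, closer to each other in total muscle share than to Sham-3, differed in the genes of slow and fast fibres. These genes were grouped after their values had been seen. The 7 slow-fibre genes are the muscle list members already found more than 2-fold higher in Sham-2 than in both others. Calls of muscle members in Sham-1 and Sham-3 were also known by then, so the counts of members are a description. The 7 slow-fibre genes held 0.0915% of counts in Sham-1, 0.208% in Sham-2 and 0.00357% in Sham-3, and the 12 fast-fibre genes 0.790%, 0.407% and 0.159%. The slow share was 11.6% of the fast share in Sham-1, 51.0% in Sham-2 and 2.25% in Sham-3. Myh7, the slow myosin heavy chain, had 53.0, 120.1 and 0.668 FPKM, and its light chain Myl2 67.6, 187 and 0.880. The slow troponin T gene Tnnt1 had 180.4, 379 and 14.8. Each slow-fibre gene was more than 2-fold higher in Sham-2 than in both others and more than 2-fold lower in Sham-3. The former holds for 0.789% and the latter for 5.26% of all genes, against which nothing is read, since the grouping used these values. Among fast-fibre genes, the IIb myosin heavy chain Myh4 had 251, 114 and 46.2 FPKM, the calcium pump Atp2a1 466, 201 and 69.8 and the fast troponin C gene Tnnc2 963, 577 and 209. All 12 were highest in Sham-1 and lowest in Sham-3, and Myh4, Actn3, Atp2a1, Pvalb and Mybpc2 were more than 2-fold higher in Sham-1 than in both others. That limit was passed by 1.71% of all genes, and again nothing is read against it, since these calls came before the grouping. The myogenic factors were low, with 3.37, 0.559 and 0.273 FPKM for Myod1 and 9.47, 7.49 and 2.00 for Myf6.

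**Figure D2:**
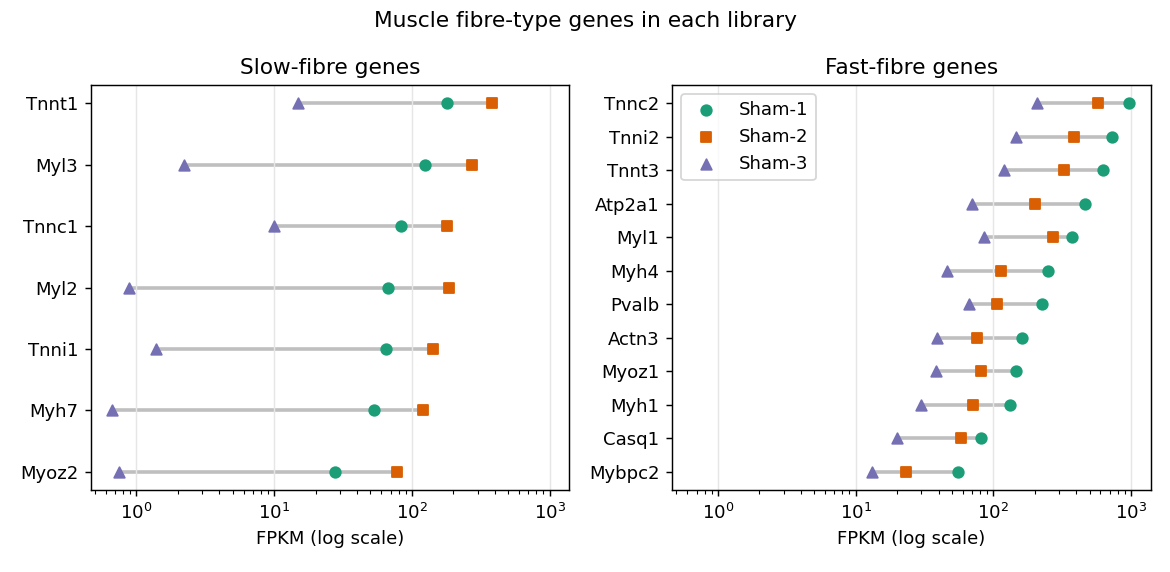
FPKM on a log axis of 7 slow-fibre genes (left) and 12 fast-fibre genes (right), with 1 marker for each library and a grey bar from the lowest to the highest. The genes were grouped after their values had been seen; Sham-2 is highest for every slow gene, Sham-1 for every fast gene, and Sham-3 is lowest for all 19.

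The upstream 250 bases of Acta1 and Ckm are shown because 66 of 67 muscle members were lowest in the same library. Capitals mark the same TATA and CACCC box letters as in the globin genes, and also the E-box form CAGCTG, searched on both strands. Acta1 is the minus strand of chr19:68784195-68784444 and Ckm the plus strand of chr1:88189211-88189460.
Acta1: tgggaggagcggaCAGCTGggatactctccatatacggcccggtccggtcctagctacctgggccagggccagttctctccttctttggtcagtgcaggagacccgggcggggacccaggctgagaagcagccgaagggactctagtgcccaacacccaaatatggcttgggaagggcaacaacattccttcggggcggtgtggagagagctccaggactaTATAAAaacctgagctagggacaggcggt
Ckm: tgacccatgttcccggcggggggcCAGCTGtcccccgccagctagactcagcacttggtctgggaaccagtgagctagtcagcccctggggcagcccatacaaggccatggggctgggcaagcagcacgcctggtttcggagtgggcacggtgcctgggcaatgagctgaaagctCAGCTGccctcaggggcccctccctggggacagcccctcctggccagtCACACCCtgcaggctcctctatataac
CAGCTG was present in 17 of 55 muscle promoters (30.9%), 7 of 25 cartilage promoters (28.0%), 7 of 48 red-cell promoters (14.6%) and 11.9% of all promoters. In Ckm it lay 226 and 75 bases before the start, and in Acta1 237 bases before it.

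**Figure D3:**
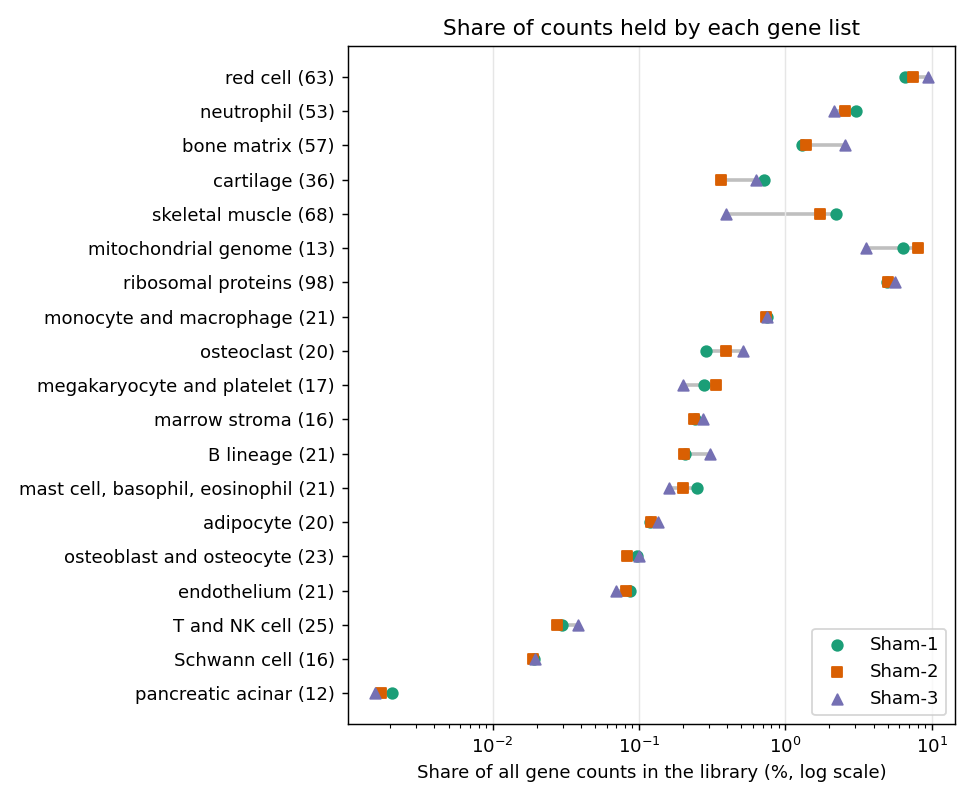
Share of all gene counts in each library, in percent on a log axis, for 19 gene lists with the number of members in the table in brackets. Red-cell, mitochondrial and ribosomal genes hold the most counts, and the skeletal muscle bar is the longest, from 0.395% in Sham-3 to 2.21% in Sham-1.

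Together the 5 lists held 13.9%, 13.5% and 15.1% of counts, and they moved in different directions between libraries. Counting error was small beside these differences, since the widest 95% Wilson interval of any share was ± 0.0117 percentage points, which covers counting error only. Sham-3 had the highest red-cell and bone matrix shares and the lowest neutrophil and muscle shares. Sham-1 had the highest neutrophil, cartilage and muscle shares. The plot of members against Sham-3 shows the muscle members apart from the others.

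**Figure D4:**
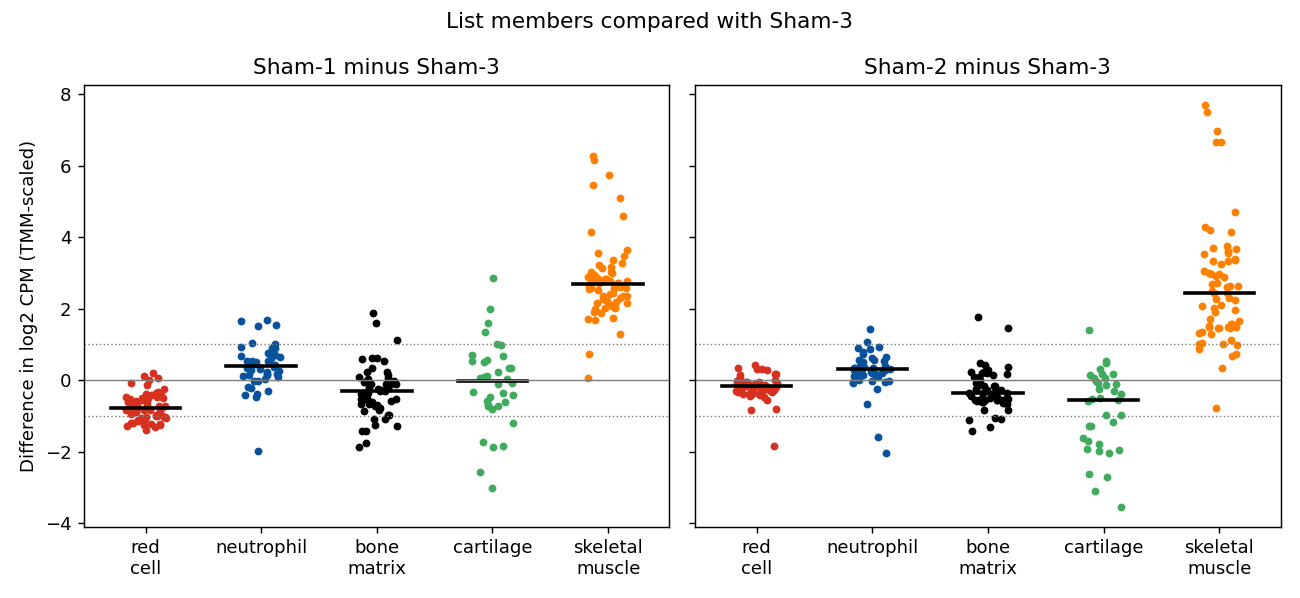
Difference in log2 CPM (TMM-scaled, prior count 2) between Sham-1 and Sham-3 (left) and Sham-2 and Sham-3 (right) for the members of 5 lists with a mean of at least 10 counts; each point is 1 gene, black bars are medians and dotted lines mark 2-fold. Muscle medians lie at 2.69 and 2.43, and the cartilage members spread to both sides of 0.

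Other cell types of marrow and bone were present at lower shares. Monocyte and macrophage genes held 0.744%, 0.732% and 0.743% of counts. Lyz2 alone held 0.624%, 0.611% and 0.577%, so the sum follows that gene. Of 21 members, 16 were highest in Sham-3, beside 6518 of all 16477 genes. Among the 16 were the complement gene C1qa at 103, 117 and 168 FPKM and the heme-degrading Hmox1 at 114, 98.4 and 141. Median log2 differences over the list were -0.52 between Sham-1 and Sham-3 and -0.44 between Sham-2 and Sham-3. Megakaryocyte and platelet genes held 0.278%, 0.337% and 0.198%, led by the chemokine Pf4 at 798, 913 and 487 FPKM and by Ppbp at 235, 476 and 304. Of 17 such members, 15 were highest in Sham-2 and 15 lowest in Sham-3, beside 4038 and 6455 of all 16477 genes. B-lineage genes held 0.207%, 0.204% and 0.306%, led by Jchain, the joining chain of secreted antibodies, at 318, 310.3 and 508 FPKM and Cd79a at 213, 204 and 292. Of 21 B-lineage members, 3 were more than 2-fold higher in Sham-3 than in both others (background 1.27%). These were Igll1, Rag2 and Dntt, genes of early B cells, with 18.2, 13.7 and 42.1 FPKM for Igll1. Genes of mast cells, basophils and eosinophils held 0.249%, 0.198% and 0.159%, led by the eosinophil granule gene Prg2 at 742, 453 and 447 FPKM. Within that list the eosinophil peroxidase Epx was highest in Sham-1 (201, 83.2 and 93.2) and the mast cell tryptase Tpsb2 in Sham-3 (0.462, 1.84 and 9.24).

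Stromal, vascular, fat and other genes were also detected. Marrow stroma held 0.241%, 0.236% and 0.273% of counts, with the niche chemokine Cxcl12 at 191 ± 18.2 FPKM. Adipocyte genes held 0.119%, 0.120% and 0.134%, led by the fatty acid carrier Fabp4 at 325 ± 35.9, while the hormone gene Adipoq had 21.1, 17.7 and 47.8. Endothelial genes held 0.0865%, 0.0809% and 0.0691%, led by Plvap at 29.2 ± 7.74. T and NK cell genes held 0.0295%, 0.0274% and 0.0382%, with the cytotoxic granule gene Nkg7 at 107 ± 16.2. Schwann cell genes held about 0.019% in each, with S100b at 27.7 ± 5.03. Immediate early genes, which rise within minutes of handling or stress, held 0.187%, 0.209% and 0.199%, led by Ccn2 at 124, 202 and 234. Ccn2 did not stand for this list: of 23 members, 14 were lowest in Sham-3 and 5 highest there. Among all 16477 genes, 6455 were lowest and 6518 highest in Sham-3. Median log2 differences over these 23 members were 0.31 between Sham-1 and Sham-3 and 0.30 between Sham-2 and Sham-3. Pancreatic acinar genes, taken as a list that bone should lack, held 0.00205%, 0.00173% and 0.00157%. Of 19 listed, 12 were in the table, and 5 of these 12 were at 3 counts or fewer in all libraries. However, 6 of the 12 had a mean of at least 10 counts, and 3 had an FPKM of at least 1 in all libraries. The 98 ribosomal protein genes held 4.92%, 5.03% and 5.58%.

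The libraries agreed closely in rank over 16477 genes with a mean of at least 10 counts. Spearman's rho, a correlation across genes, which are not independent replicates, was 0.987 for Sham-1 and Sham-2, 0.978 for Sham-2 and Sham-3 and 0.969 for Sham-1 and Sham-3. The median absolute log2 difference in CPM was 0.21, 0.24 and 0.34 in the same order. More than 2-fold apart were 1013 genes (6.15%) between Sham-1 and Sham-2, 1625 (9.86%) between Sham-2 and Sham-3 and 2196 (13.3%) between Sham-1 and Sham-3, each comparison of a single library with another and with no replicate check. Sham-1 and Sham-2 shared 92 of their 100 genes with the highest FPKM, Sham-2 and Sham-3 90 and Sham-1 and Sham-3 83. Of the 100, 83 were shared by all 3 libraries. By each measure Sham-3 stood farther from Sham-1 than Sham-2 did. It was more than 2-fold away from both others in 1077 genes (6.54%), against 529 (3.21%) for Sham-1 and 292 (1.77%) for Sham-2.

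**Figure D5:**
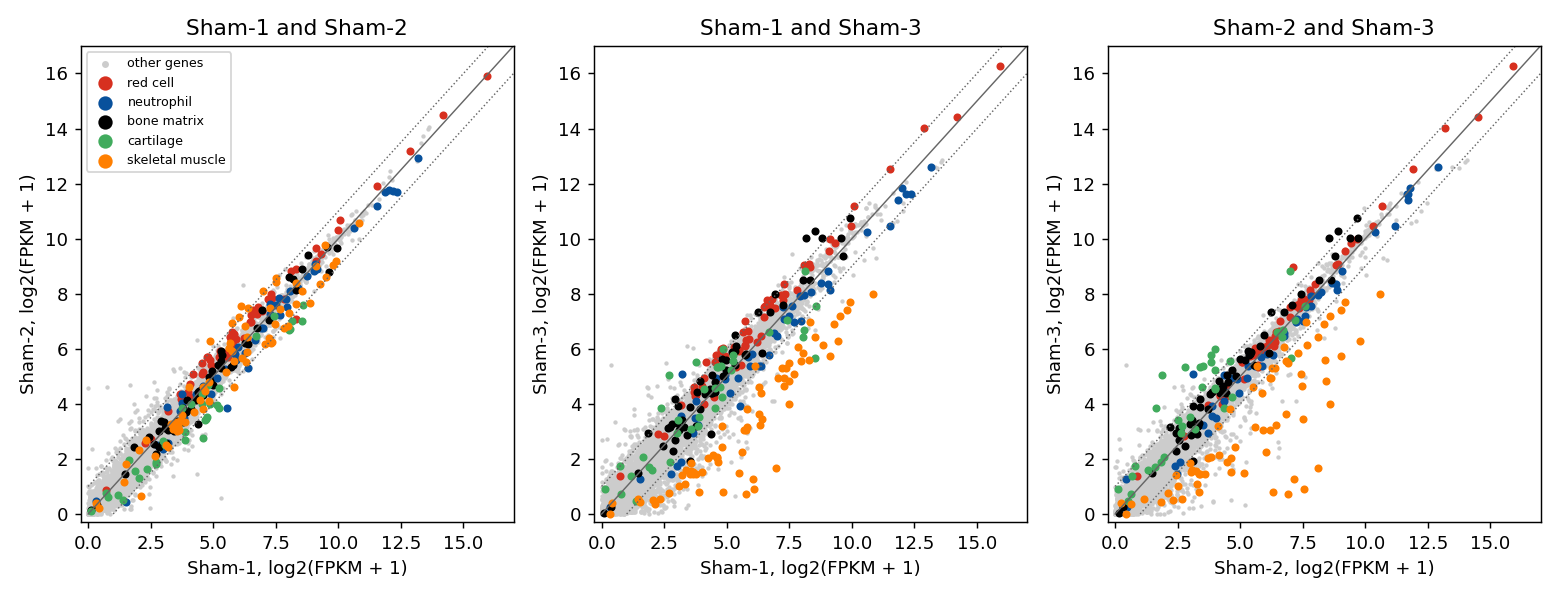
Log2(FPKM + 1) of 16477 genes in each pair of libraries, with members of the 5 lists coloured, the line of equality solid and 2-fold lines dotted. Most muscle genes fall below the lower dotted line in both panels with Sham-3 on the vertical axis, and between Sham-1 and Sham-2 they lie on both sides of the line of equality.

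The common biological coefficient of variation, the spread between libraries beyond counting error as edgeR estimates it, was 0.275. It was 0.192 without Sham-3, 0.280 without Sham-1 and 0.341 without Sham-2. Spread fell with level and then rose again: the median coefficient of variation was 37.2% for 3552 genes with a mean of 10 to 100 counts, 16% up to 1000, 10.8% up to 10000, and 13% for the 459 genes above that, where Poisson counting alone gives 0.774%. Among the 547 protein-coding genes with an FPKM of at least 100 in all libraries, 504 (92.1%) kept within 2-fold. The 12 of them with the widest span were Acta1, Ckm, Tnnt3, Tnni2, Tnnc2, Car3, Ctsk, Col1a2, Myl11, LOC100134871, Col2a1 and Col1a1, and 6 of these 12 are contractile or energy genes of muscle. Car3, a carbonic anhydrase of slow muscle and fat, had 305, 446 and 106 FPKM.

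The 10 protein-coding genes with the highest ratio between libraries, among those with a mean of at least 100 counts, held 5 muscle genes: Myl2, Myh6, Myh7, Myl3 and Ankrd2. Myh6, the alpha myosin heavy chain of heart and some muscle, had 590 counts in Sham-1, 516 in Sham-2 and 1 in Sham-3, and Ankrd2, a stretch-responsive muscle gene, 392, 1383 and 10. Others were at 0 in a single library. RGD1561730 had 0, 1016 and 246 counts, LOC120095902, described as a paired immunoglobulin-like receptor, 0, 355 and 167, and LOC689268 0, 72 and 292. Serpinb11 had 105, 201 and 0 counts, and LOC120093247, described as like the ribosomal protein L29, 7, 8 and 930. In all, 41 genes, 30 of them protein-coding, had 3 counts or fewer in a library and at least 50 in another, of which 26 were low in Sham-3 alone, 7 in Sham-1 alone and 3 in Sham-2 alone.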

How the data were processed

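Bone mRNA of 3 Sham libraries was analysed. Poly(A) RNA was sequenced as 150 bp paired ends, and the authors filtered reads, used Tophat and Bowtie2 for alignment and took gene levels from eXpress; the submitters' notes name mRatBN7.2. How the estimates became whole numbers and whether strand was used in counting are not given in the sources used here, so overlapping and near-identical genes may share counts. Counts were deposited as whole numbers for each gene and were not normalized. The deposited FPKM are a rescaling of these counts: for 12320 of 12320 genes that reached 100 counts in every Sham library, the implied gene length was equal across libraries within 1%. Shares are sums of counts over a list divided by the library total, with 95% Wilson intervals. The libraries held 34874880 to 35813432 counts.

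Ratios between libraries used CPM scaled by TMM in edgeR 4.0.16 (R 4.3.3), with a prior count of 2, for genes with a mean of at least 10 counts; 2-fold was the limit, and no p was computed, since the 3 libraries are 1 group and the labels do not say how the animals were sampled. The biological coefficient of variation was checked on simulated data, and DESeq2 1.42.0 was an alternative. Other steps used Python 3.11.15, pandas 2.3.3 and scipy 1.17.1. Upstream sequences were RefSeq entries of assembly GRCr8, found for 207 of 277 list members by symbol. The members and lists were chosen with earlier results of these data known. Named genes were the 25 with the highest mean FPKM, in each of the 5 lists the 6 highest members and the highest of each subset, in other lists the 3 highest, list members more than 2-fold from both other libraries, and the 10 with the highest ratio between libraries at a mean of at least 100 counts. The mitochondrial, fibre-type, ribosomal, receptor and hub gene groups, the transcription factors, the genes at 100 FPKM with the widest span, the genes low in a single library and other genes outside this rule were chosen after the values were seen. All per-sample columns matched a sample.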

Additional observations from a re-analysis of the deposited data

How the results depend on the processing

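Of 71 alternative values for 12 results, 54 stayed within the spread between libraries or within 1.5 times the count and 17 did not. As a share of summed FPKM, red-cell genes held 18.7%, neutrophil genes 4.98% and cartilage genes 0.275%, and 113 genes held 50% of FPKM against 885 for counts, since FPKM divides by gene length. Bone matrix held 1.11% and skeletal muscle 1.25% of summed FPKM, both within the spread between libraries. Their order was the reverse of that by counts, 1.74% and 1.44%. Without Hba-a1 the red-cell list held 4.06% of counts. The lowest rank correlation was 0.956 among genes with a mean of at least 100 counts. The biological coefficient of variation was 0.192 from the median gene dispersion of DESeq2, and leaving out each library gave 0.192 to 0.341. Genes past 2-fold numbered 2433, 3613 and 3111 with no filter for Sham-1 and Sham-2, Sham-1 and Sham-3, and Sham-2 and Sham-3, 257, 1021 and 620 at a mean of at least 100 counts, and 157, 660 and 382 on log2(FPKM + 1). The order of the pairs was the same in each. No paired analysis was possible because the report describes 1 group and no result comes from a test between groups. With 3 libraries, a library that stands apart cannot be told from ordinary variation between rats. The labels give each library its own CMC-Na percentage, so by the labels it cannot be told from a difference in vehicle either. Shares are relative, so a higher share of one list lowers the others.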

Other observations

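Of 1189 genes that the deposited annotation assigns to a transcription factor family, 722 had an FPKM of at least 1 in all 3 libraries. The highest was Ybx3, a cold-shock domain protein, at 903, 804 and 1079 FPKM in Sham-1, Sham-2 and Sham-3, followed by Cnbp at 315 ± 24.5 (SD, n = 3), the stress factor Atf4 at 213 ± 25.2 and Ybx1 at 189 ± 10.9. Factors of blood lineages were among the next: Klf1 of red cells had 143 ± 49.1, Cebpb of myeloid cells 118 ± 26.3 and the cell cycle factor E2f2 99.3 ± 9.54. Runx2 and Sp7, which direct osteoblasts, were lower at 5.15 ± 0.619 and 7.04 ± 2.15 FPKM.

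Receptors for hormones that act on bone covered a range of levels. The parathyroid hormone receptor Pth1r led with 16.2, 15.0 and 22.0 FPKM, and the thyroid and glucocorticoid receptors Thra and Nr3c1 had 11.8 ± 0.0923 and 11.7 ± 0.599. The vitamin D receptor Vdr had 2.72, 5.24 and 9.64, more than 2-fold lower in Sham-1 than in both others (background 1.5%). The estrogen receptor Esr1 had 0.111, 0.101 and 0.102 FPKM, and Esr2 had 0 counts in each library, which allows up to 3 counts. The calcitonin receptor Calcr had 0.460 ± 0.250.

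The genes that the study names as hubs differed in level in Sham bone. Igfbp2, an insulin-like growth factor carrier, had 10.8, 17.1 and 15.0 FPKM, and Ptgs2, the inducible cyclooxygenase, 2.00, 1.46 and 2.00. Gfap had 105, 102 and 890 counts, and Gzmb, a cytotoxic granule protease, 0.114, 4.18 and 0.209 FPKM, so in both genes a single library held most of the signal. Lep, Wnt10a, Il22ra2 and Wnt1 had means of 0.534, 0.289, 0.191 and 0.170 FPKM.

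Among genes listed as non-coding, H19, an imprinted RNA known from fetal tissue and muscle, had 370.4, 264 and 101 FPKM, in the order of the muscle share, and Gas5 had 283, 244 and 327. Oip5-as1 differed little, at 20.3, 21.0 and 21.3 FPKM.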
